A study of Mus musculus with 6 samples.

Results

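The core cardiac transcription factors examined here are the 10 genes Gata4, Gata6, Nkx2-5, Tbx5, Tbx20, Mef2a, Mef2c, Mef2d, Hand2 and Irx4. Every probe set that the platform annotation lists with exactly 1 of these symbols was taken, which gave 11 of the 35556 probe sets on the array, 2 for Mef2d and 1 for each of the other genes, and 10 of the 19938 genes named by a single symbol. RNA from hearts of 3-month-old male mice had been hybridised to 6 Affymetrix Mouse Gene 1.0 ST arrays, 3 for wild-type (WT) and 3 for VAChT KD mice, and 2 RNA samples were pooled for each array. VAChT KD mice are homozygous for an allele that lowers expression of Slc18a3, the gene of the vesicular acetylcholine transporter that loads acetylcholine into synaptic vesicles. The reduction is not limited to the heart, and neither group received a treatment. The sample records name C57BL/6, and the methods of the study name a mixed C57BL6/j background with a few generations of backcrossing. The records name the heart, and the study names ventricles. The comparison asks whether the genes that set cardiac muscle identity differ in level between these genotypes.

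These factors belong to a few families of DNA-binding proteins. GATA factors carry zinc fingers, Nkx2-5 and Irx4 a homeodomain, Tbx5 and Tbx20 a T-box, MEF2 factors a MADS box, and Hand2 a basic helix-loop-helix domain. In the embryo they direct the formation of the heart, often by binding side by side at the same enhancers, and in the adult heart they keep contractile, ion channel and natriuretic peptide genes active. Several of them also take part in the hypertrophic response, in which calcium signals release MEF2 factors from class II histone deacetylases.

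Before the results, 2 features of the arrays need stating. Ogdhl, an oxoglutarate dehydrogenase-like gene, had log2 signals of 9.60, 7.21 and 10.33 in WT 1, 2 and 3 by label, against 7.06, 10.17 and 7.09 in VAChT KD 1, 2 and 3, so that the arrays numbered 2 went against the other arrays of their labels. Slc18a3 itself read 7.31, 7.42 and 7.11 in WT and 7.24, 6.78 and 7.58 in VAChT KD, and did not separate the labelled groups. Whether these 2 arrays were exchanged was not tested. Groups follow the labels here, and every difference between the groups rests on them, also where a value without both arrays numbered 2 is given. The array labelled VAChT KD 1 was lower than the mean of the other 5 arrays at all 65 probe sets where that mean was above 14, by a median log2 difference of -0.99, and its highest signal was 13.70 against 14.71 or more elsewhere. None of the cardiac transcription factors lay in that range. At lower signals this array was lower by less, with medians of -0.34 from 13 to 14, -0.18 from 12 to 13 and -0.096 from 11 to 12. Mef2a and Tbx20 lay in the last of these ranges, at -0.024 and -0.050.

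All 11 probe sets were above background, taken as the 95th percentile of 1035 olfactory receptor probe sets. Mean signals over the 6 arrays ran from 11.96 for Mef2a to 9.19 for Irx4, and the second Mef2d probe set was dimmer still at 8.19. In order of signal the genes were Mef2a, Tbx20, Gata6, Gata4, Mef2d, Nkx2-5, Mef2c, Tbx5, Hand2 and Irx4. The first 7 places were held by the same genes on all 6 arrays, and Tbx5, Hand2 and Irx4 exchanged places 8 to 10 between arrays. Probe sets hybridise with different strength, so this is an order of signal and not of transcript number. The heart identity of the samples was plain from the muscle markers, with all 10 cardiomyocyte genes above background and a list mean of 13.69 on each WT array. Myl2, the ventricular regulatory light chain, read 13.46 on average, and Myl7, its atrial counterpart, 10.55.

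**Figure D1:**
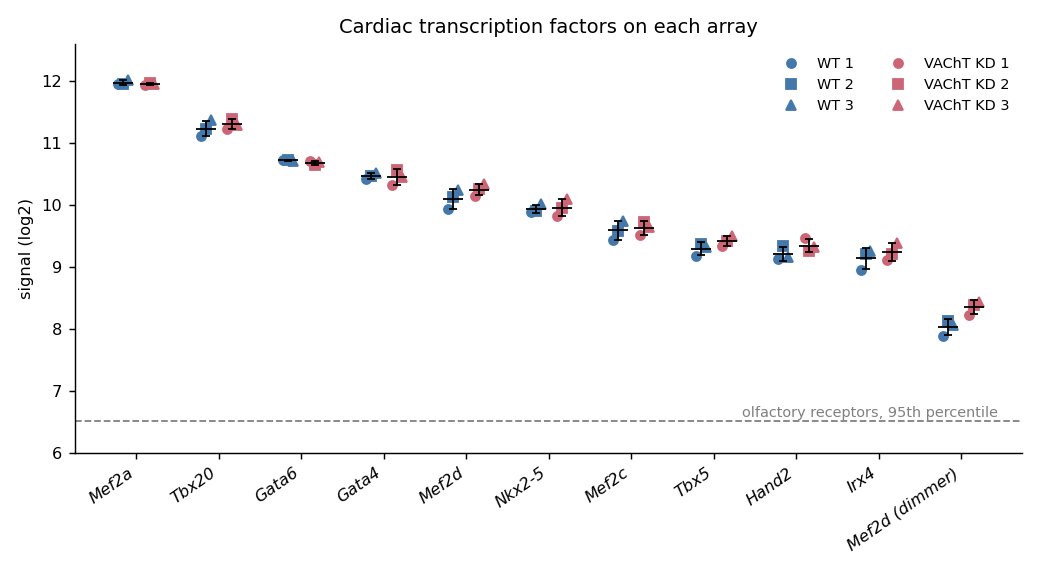
Signal (log2, vertical axis) of the 11 probe sets of the cardiac transcription factors on each array, ordered by mean signal, with circles, squares and triangles for the arrays numbered 1, 2 and 3. Black bars give the mean and SD of 3 arrays, and the dashed line is the 95th percentile of the olfactory receptors. The groups lie side by side at every gene, from 11.96 for Mef2a to 9.19 for Irx4, and they part only at the dimmer Mef2d probe set, apart from the narrow gap at Gata6.

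Upstream sequence was on hand in the RefSeq table of build GRCm38.p6 for 7 of the 10 genes, in 9 windows of 250 bases ending at an annotated start; Gata4, Gata6 and Tbx5 are named only. Windows of 3 genes are shown. Mef2d was taken because it holds the probe set with the widest difference between genotypes. Hand2 was taken because it has the most motif matches of the genes with 1 window, and Nkx2-5 because it has none. Mef2a, Tbx20 and Irx4, not shown, have none either. Capitals mark matches, on either strand, to GATAA (the core read by GATA factors), AAGTG (NK2 homeodomain), AGGTGT (T-box), CATCTG (an E-box read by Hand dimers), TATAAA and CCAAT.
Mef2d, chr3:88142122-88142371, plus strand: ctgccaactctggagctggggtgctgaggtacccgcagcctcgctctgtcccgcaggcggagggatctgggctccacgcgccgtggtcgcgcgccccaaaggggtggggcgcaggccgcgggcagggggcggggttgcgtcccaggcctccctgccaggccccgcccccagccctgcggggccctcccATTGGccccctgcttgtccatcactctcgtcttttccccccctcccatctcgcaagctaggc
Hand2, chr8:57320733-57320982, plus strand: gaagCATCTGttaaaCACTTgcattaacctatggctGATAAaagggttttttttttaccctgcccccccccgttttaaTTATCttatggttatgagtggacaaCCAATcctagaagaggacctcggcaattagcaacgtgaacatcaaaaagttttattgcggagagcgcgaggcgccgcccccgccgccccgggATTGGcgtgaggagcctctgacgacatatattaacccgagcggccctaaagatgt
Nkx2-5, chr17:26841566-26841815, minus strand: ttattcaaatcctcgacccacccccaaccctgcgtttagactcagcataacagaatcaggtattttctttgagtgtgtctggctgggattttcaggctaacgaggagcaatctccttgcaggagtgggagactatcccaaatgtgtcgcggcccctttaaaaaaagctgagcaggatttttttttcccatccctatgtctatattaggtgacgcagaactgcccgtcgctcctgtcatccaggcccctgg
The Mef2d window had a GC content of 73.2%, Hand2 and Nkx2-5 49.2% each, and the median of all 32851 windows of the table was 52.4%. GATAA was in 2 of the 9 windows, those being of Hand2 and Mef2c, and in 22.6% of all windows. AAGTG was in 4 of the 9, of the same 2 genes, and in 40.7% of all windows. CCAAT was in 4 of the 9, of 3 genes (Mef2d, Hand2 and Mef2c), and in 33.8% of all. AGGTGT was in 1 and TATAAA in 2 of the 9, of Mef2c alone, against 11.8% and 12.4% of all windows. CATCTG was in 2 of the 9, of 2 genes, against 14.4%. None of these motifs contains another, and a match is a description of the sequence, not of binding.

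Grouped by label, the genotypes did not differ detectably at any of the 10 genes when each was read at its brightest probe set. The log2 differences, VAChT KD minus WT, ran from -0.037 to 0.14, with 7 above and 3 below 0 and a median of 0.054, beside a median of -0.018 over all probe sets. Adjusted p-values from limma ran from 0.555 to 0.955 for the 10 genes, and none of the 11 probe sets passed an adjusted p of 0.05, where 0.00281% of all probe sets on the array did. At an unadjusted p of 0.05 the 1 call was the dimmer Mef2d probe set, that is 1 of 11, beside 11.7% of all probe sets in either direction and 3.93% in the direction of a higher VAChT KD signal. The groups did not overlap at 2 of the 11, Gata6 and the dimmer Mef2d probe set, beside 19.2% of all. None of the 11 passed both an unadjusted limma p of 0.05 and a 1.3-fold difference, against 3.79% of all. The study set the same cut-offs, but on p-values from an ANOVA. Without both arrays numbered 2 the differences of the 10 genes ran from -0.077 for Gata4 to 0.24 for Hand2, with a median of 0.014, and again none passed an adjusted p of 0.05.

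Of the zinc finger factors, Gata6, which acts beside Gata4 in heart muscle and also in endoderm and vascular smooth muscle, read 10.73, 10.72 and 10.71 on the WT arrays and 10.70, 10.65 and 10.70 on the VAChT KD arrays. Its groups did not overlap, with all VAChT KD values just below the WT values, but the difference was only -0.037 (standard error 0.071, limma adjusted p = 0.832). Over all probe sets, 12.9% had VAChT KD below WT without overlap. Its residual SD of 0.023 was smaller than that of all but 0.413% of probe sets on the array. Gata4, a central activator of natriuretic peptide and contractile genes, read 10.42, 10.46 and 10.52 in WT and 10.33, 10.57 and 10.45 in VAChT KD. Here the VAChT KD values enclosed the WT values, and the difference was -0.014 (standard error 0.089, adjusted p = 0.955). Gata4 lies on chromosome 14, as does Slc18a3.

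Nkx2-5, the NK2 homeodomain factor of the heart and its conduction system, read 9.89, 9.90 and 10.01 in WT and 9.82, 9.96 and 10.10 in VAChT KD. The VAChT KD arrays held both the lowest and the highest value, and the difference was 0.023 (standard error 0.096, adjusted p = 0.930). Irx4, an Iroquois homeodomain factor that marks ventricular muscle and holds back atrial genes there, had the widest range of the 10 genes. It read 8.94, 9.22 and 9.26 in WT and 9.11, 9.22 and 9.39 in VAChT KD, with a difference of 0.10 (standard error 0.12, adjusted p = 0.714). The groups overlapped, with WT 1 lowest and VAChT KD 3 highest.

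Of the T-box factors, Tbx5, which activates atrial and conduction genes and works with Nkx2-5 and Gata4, read 9.17, 9.37 and 9.33 in WT and 9.33, 9.42 and 9.50 in VAChT KD. The groups overlapped at the array WT 2 and the difference was 0.13 (standard error 0.090, adjusted p = 0.555). Tbx20, which represses as well as activates and is needed in adult heart muscle, read 11.11, 11.23 and 11.36 in WT and 11.23, 11.39 and 11.29 in VAChT KD. Its groups overlapped over most of their range (difference 0.067, standard error 0.094, adjusted p = 0.764). Hand2, a factor of the right ventricle and of sympathetic neurons, read 9.13, 9.34 and 9.15 in WT and 9.46, 9.26 and 9.31 in VAChT KD. The array WT 2 lay inside the VAChT KD values, and the difference was 0.14 (standard error 0.095, adjusted p = 0.556). Without both arrays numbered 2 it was 0.24, the change of most size among the 10 genes at that setting, with an unadjusted limma p of 0.0962. With the labels of these arrays exchanged, the Hand2 groups would not overlap. WT 1, WT 3 and VAChT KD 2 all lay below WT 2, VAChT KD 1 and VAChT KD 3. The difference at that grouping was not tested.

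The MEF2 factors spanned the whole range of signal. Mef2a, the main MEF2 gene of the postnatal heart, read 11.96, 11.95 and 12.02 in WT and 11.94, 11.96 and 11.95 in VAChT KD. All 6 values lay within 0.0816 of each other and the difference was -0.024 (standard error 0.072, adjusted p = 0.898). Mef2c, which is needed for the looping heart and the right ventricle, read 9.44, 9.59 and 9.74 in WT and 9.52, 9.73 and 9.64 in VAChT KD, with a difference of 0.040 (standard error 0.11, adjusted p = 0.882). Its WT values enclosed the VAChT KD values.

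Mef2d, a mediator of stress signals in adult heart muscle, gave different answers at its probe sets. The brighter read 9.93, 10.13 and 10.25 in WT and 10.15, 10.25 and 10.34 in VAChT KD, which overlapped, with a difference of 0.14 (standard error 0.11, adjusted p = 0.571). The dimmer, which the annotation pairs with cDNA clones and with no RefSeq transcript, read 7.88, 8.13 and 8.06 in WT and 8.22, 8.39 and 8.44 in VAChT KD. All VAChT KD values were above all WT values there, as at 6.25% of probe sets on the array. The difference was 0.32, or 1.25-fold (standard error 0.10, 95% interval 1.06-fold to 1.47-fold, limma adjusted p = 0.409). It stayed between 0.25 and 0.39 with any single array left out and was 0.35 without both arrays numbered 2, with an unadjusted limma p of 0.0474 at that setting. WT 2 was the highest of the WT values, and VAChT KD 2 at 8.39 was above VAChT KD 1 at 8.22. With the labels of the arrays numbered 2 exchanged, the groups would therefore overlap at this probe set. The call at that grouping was not tested. With the log2 values of both probe sets averaged, the Mef2d difference was 0.23 with an unadjusted limma p of 0.0525, and it was not called. What part of the gene the dimmer probe set covers is not known here.

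Grouped by label, the arrays bounded the size of the differences closely at the brightest probe sets. For 9 of the 10 genes the 95% interval lay inside 1.3-fold in both directions. For Mef2d it reached from 6.88% lower to 31.1% higher at its brighter probe set and from 6.14% to 47.3% higher at its dimmer. If the labels of the arrays numbered 2 are wrong, these intervals do not bound the difference between genotypes. Over all 10 genes the lowest bound was a signal 14.4% lower, for Gata4. For Mef2a the interval ran from 12.5% lower to 10.5% higher and for Gata6 from 13.1% lower to 9.34% higher. These intervals are from limma, which draws part of each spread from the other probe sets, and with 3 pools in each group an exact permutation test cannot give a two-sided p below 0.1.

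**Figure D2:**
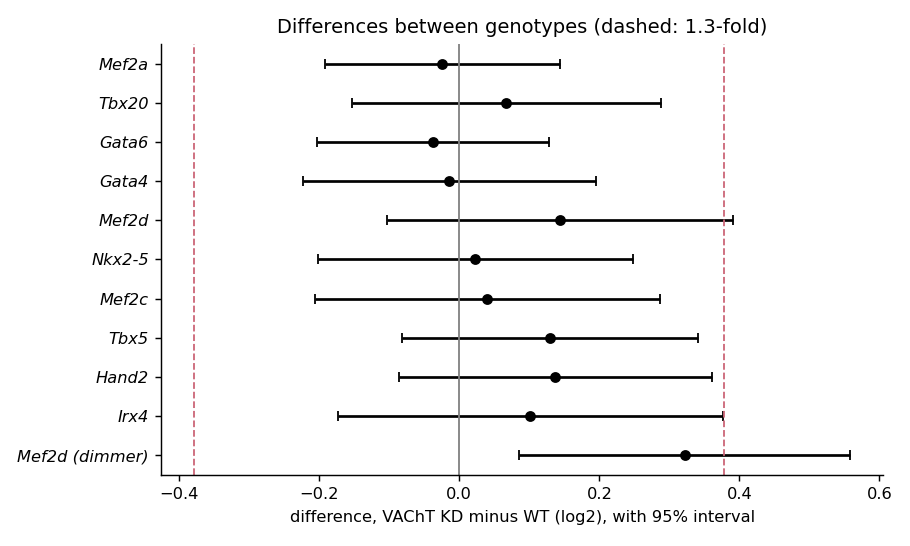
Log2 difference between VAChT KD and WT (horizontal axis) for each probe set of the cardiac transcription factors, with limma's 95% interval, from the brightest probe set at the top to the dimmest at the bottom, and dashed lines at 1.3-fold. The 10 upper intervals include 0, and that of the dimmer Mef2d probe set starts at 0.086.

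The arrays also differed with the strength of the signal. WT 1 gave the lowest value of the 6 arrays at 7 of the 11 probe sets, and VAChT KD 3 the highest at 5. Over all probe sets with a mean signal from 9 to 10, the range that holds 5 of these probe sets, WT 1 lay at a median of -0.11 and VAChT KD 3 at 0.11 from the mean of the other 5 arrays. The median difference between genotypes in that range was 0.066, and it was 0.046 from 10 to 11 and 0.021 from 11 to 12. Set against the median of their range, 6 of the 11 probe sets lay above and 5 below, and the 10 genes lay between -0.083 and 0.098 from it. The dimmer Mef2d probe set lay 0.27 above it.

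**Figure D3:**
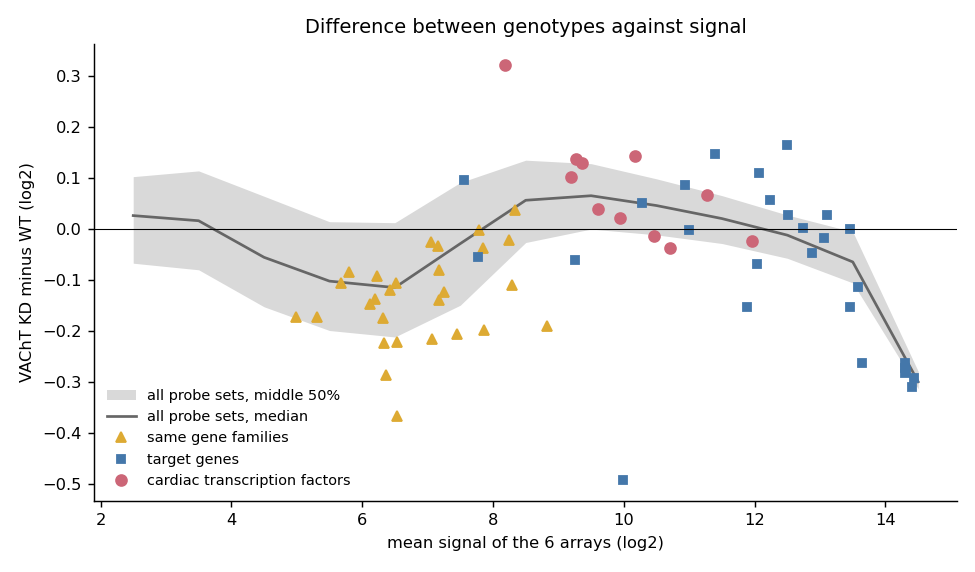
Log2 difference between VAChT KD and WT (vertical axis) against mean signal of the 6 arrays (log2, horizontal axis), for the cardiac transcription factors, genes of the same families and target genes, over the median and middle 50% of all probe sets in steps of 1 log2 unit. The cardiac factors lie on both sides of the median of all probe sets, which is 0.066 from 9 to 10 and -0.11 from 6 to 7, and the family genes lie mostly below 0.

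Other genes of the same families were measured as well. Of 28 such genes, 17 were above background, and their mean signals ran from 4.99 to 8.82. The brightest were Irx3, of the ventricular conduction system, at 8.82, Tbx3, a repressor that marks pacemaker tissue, at 8.33, and Irx2 at 8.28. Their differences were -0.19, 0.037 and -0.11.

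Of the 28 family genes, 27 had a lower and 1 a higher mean in VAChT KD, with a median difference of -0.13, and at an unadjusted p of 0.05 in limma 4 were lower and none higher, where 7.81% of all probe sets were lower. These 4 were Tbx21, the T-bet factor of T helper cells, at -0.37 (standard error 0.10), Gata1, of red cells and platelets, at -0.29 (standard error 0.089), Nkx2-1, of thyroid and lung, at -0.22 and Nkx2-6 at -0.22. None passed an adjusted p of 0.05 (lowest 0.409). Tbx21 read 6.87, 6.55 and 6.73 in WT and 6.37, 6.43 and 6.25 in VAChT KD, close to background on every array. Among all probe sets with a signal from 6 to 7, 73.2% were lower in VAChT KD, with a median of -0.11, and the mean of the olfactory receptors was 4.84 to 4.98 on WT arrays and 4.73 to 4.81 on VAChT KD arrays. After a further quantile normalization or median centring, 1 of the 28 was called lower, and without both arrays numbered 2 it was also 1, Tbx21 at -0.49. The part of this general shift in the result was not tested.

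The partners through which these factors act were also measured. Of 29 cofactors, repressors and signal-dependent regulators, 16 were higher and 13 lower in mean, with a median of 0.037, and none passed an unadjusted p of 0.05. The smallest p-values were those of Zfpm1, the GATA cofactor FOG-1, at -0.19 (standard error 0.087), Hdac4, a class II histone deacetylase that binds MEF2, at -0.18 (standard error 0.086), Myocd, the cofactor of serum response factor, at 0.20 (standard error 0.097) and Meis1, a homeodomain factor, at 0.22 (standard error 0.11), with adjusted p-values of 0.443 to 0.464 in limma. Myocd read 10.07, 10.27 and 10.29 in WT and 10.38, 10.52 and 10.32 in VAChT KD. The groups did not overlap at Myocd, the 1 partner of 29 with all VAChT KD values above, where 6.25% of all probe sets were so. They also did not overlap at 3 partners with all of them below, where 12.9% of all probe sets were so. These 3 were Zfpm1, Hdac4 and Nfatc4, a calcineurin-dependent factor. Hdac4 at its second probe set differed by 0.016, and Tead1 at its second by 0.020. Camta1 differed by -0.0057 at its brightest probe set, and by 0.0023 and -0.0093 at dimmer ones. At its dimmest, with a mean signal of 7.07, it differed by 0.41 (standard error 0.18, unadjusted limma p of 0.052).

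Among 28 genes that these factors activate in heart, the 1 call at an unadjusted p of 0.05 was Myh7, the slow myosin heavy chain that rises in stressed adult mouse ventricle, and it was lower. At that cut-off 7.81% of all probe sets were lower. Myh7 read 10.53, 10.11 and 10.06 in WT and 9.74, 10.09 and 9.39 in VAChT KD, which differed by -0.49 (standard error 0.20, adjusted p = 0.414 in limma), with VAChT KD 2 inside the WT values. Leaving out single arrays ended this call, with -0.34 without WT 1, -0.55 without WT 2, -0.49 without VAChT KD 1 and -0.32 without VAChT KD 3. Without both arrays numbered 2 the difference was -0.73. The median over the target list was -0.050, with 11 genes higher and 17 lower in mean. Slc8a1 differed by 0.087 at its brightest probe set and by 0.24 at its second (standard error 0.10, unadjusted limma p of 0.0526). All VAChT KD values were above WT at the second, as at 6.25% of all probe sets. Ppargc1a differed by 0.039 at its second probe set. Nppa, the natriuretic peptide that Gata4, Nkx2-5 and Tbx5 activate, differed by 0.16 (standard error 0.14), Corin, its processing protease, by -0.15 (standard error 0.084), and Tnnc1, the troponin C of heart, by -0.15 (standard error 0.13).

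The contractile targets with the brightest probe sets differed from the factors on a single array. Tnnt2, cardiac troponin T, read 14.57, 14.61 and 14.50 in WT and 13.59, 14.58 and 14.57 in VAChT KD. Its difference of -0.31 (standard error 0.25, adjusted p = 0.605) became 0.018 without VAChT KD 1, and that of Tnnc1 became -0.013. Of the target genes, 6 had a mean above 14 on the other 5 arrays, and VAChT KD 1 read -1.01 to -0.93 from that mean at each of them. At the other 22 target genes it read -0.88 to 0.0052 from the mean. Over the 10 cardiac factors the same array lay at a median of -0.039, from -0.16 for Gata4 to 0.23 for Hand2.

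**Figure D4:**
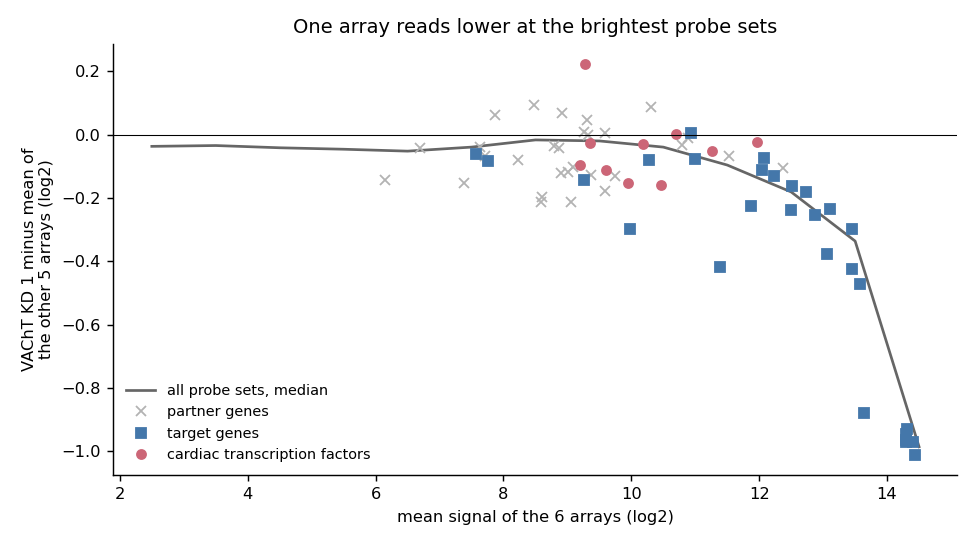
Difference of the array VAChT KD 1 from the mean of the other 5 arrays (log2, vertical axis) against mean signal (log2, horizontal axis), for the cardiac transcription factors, their target genes and their partners, with the median of all probe sets as a line. The line falls to -0.99 for probe sets from 14 to 15, and the cardiac factors lie between -0.16 and 0.23.

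Markers of other cell types were set beside the factors, since in whole tissue fewer cells of a type and less RNA per cell cannot be told apart. Mean log2 signals of 8 fibroblast genes were 9.74 to 9.93 on WT arrays and 9.77 to 9.97 on VAChT KD arrays, and those of 8 endothelial genes 10.16 to 10.41 and 10.16 to 10.36. The 8 atrial genes, all higher in mean in VAChT KD with none passing an unadjusted p of 0.05, read 8.66 to 8.82 in WT and 8.77 to 9.40 in VAChT KD, and their summed linear signal was 10817 to 12070 and 11523 to 16285. The upper end was VAChT KD 3, the array with the highest Nkx2-5, Tbx5, Irx4 and Mef2d. Of 7 mural genes, which mark smooth muscle and pericytes, 6 were higher in mean in VAChT KD, and Tagln was called at an unadjusted p of 0.05 (0.22, standard error 0.092). At that cut-off 3.93% of all probe sets were higher. The mural means were 9.41 to 9.54 in WT and 9.48 to 9.60 in VAChT KD. Of 8 macrophage genes 7 were higher, with none called, and list means of 8.773 to 8.999 and 8.811 to 9.142. Of 8 skeletal muscle genes, 4 of them above background, all were lower and 2 were called, Actn3 at -0.24 and Tnni2 at -0.27, with list means of 6.58 to 6.83 and 6.48 to 6.57. Among all probe sets 7.81% were called lower. From 5 to 6 and from 6 to 7, 72.2% and 73.2% of all probe sets were lower in VAChT KD, with medians of -0.10 and -0.11. The part of these cell types in the values of the cardiac factors and of Myocd was not tested.

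Of single genes across the array, the profile over the 6 arrays nearest to that of Irx4, the factor with the widest range, was that of Bri3bp, with a root mean square difference of 0.0251 after each gene's own mean was removed. Arfip1, Atxn2, Trim8 and Nrbp2 followed, up to 0.0293, out of 14474 probe sets compared. With so many probe sets and so few arrays, such likeness is a description only.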

How the data were processed

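Gene expression was measured on 6 Mouse Gene 1.0 ST arrays, 3 WT and 3 VAChT KD, grouped and numbered by their titles. Scanning was with Command Console 1.1. The authors then applied RMA (Partek Genomics Suite 6.5), which corrects background and normalizes across arrays, and deposited the resulting log2 signals. A genome build is not given in the sources used here. Gene names came from the supplied platform annotation, where 21789 carry 1 symbol, 1621 several and 12146 none; those with several were not named. Chromosomes and upstream sequences came from RefSeq (GRCm38.p6).

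The deposited log2 values were used without a filter and the genotypes were compared in limma 3.58.1 (R 4.3.3; lmFit, then eBayes), p-values being adjusted by Benjamini-Hochberg across the 35556 probe sets. A gene with several probe sets was represented by the one with the highest mean, and all probe sets of the 10 factors are reported. Named beside the factors were, from each of the lists of family, partner and target genes, the 4 with the smallest p, the 3 brightest family genes, and the 5 profiles nearest to that of the most variable factor. Nppa, Myl2, Myl7, Nfatc4, Tagln, Actn3 and Tnni2 fall outside this rule and were chosen after their values were seen. So do the probe sets named for Camta1, Tead1, Slc8a1 and Ppargc1a, and the second of Hdac4. The genes and lists were chosen with earlier results of these data known. No array has a count behind it, so precision rests on the number of arrays, and p-values measure the spread between pools of 2 RNA samples. Alternatives were a further quantile normalization, median centring, filters on dim probe sets, other variance models, array weights, the methods' ANOVA, the replicate number as a block, averaged probe sets and each array left out. Leaving out both arrays numbered 2 was added after seeing the data. The procedure was tested on simulated arrays with independent noise at each probe set. These lacked the array differences by signal seen here, so the simulation cannot show their effect on the calls.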

Additional observations from a re-analysis of the deposited data

How the results depend on the processing

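No count of the 10 factors at an adjusted p of 0.05 left 0 under any alternative, and the family, partner and target lists also stayed at 0. The factors' count at an unadjusted p of 0.05 became 0 with averaged probe sets. The count that also needs 1.3-fold rose from 0 to 1 with median centring, through the dimmer Mef2d probe set at 0.39, and ran from 0 to 1 with 1 array left out, being 1 without VAChT KD 1. The factors' median difference ran from 0.0024 to 0.11 with 1 array left out and was 0.12 with median centring.

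The numbers of the arrays were not taken as pairs. Deviations of same-numbered arrays correlated at 0.0573, -0.125 and 0.133, and 3 of 6 arrays correlated best with their own number. With 3 arrays in each group these values cannot exclude a pairing. With the replicate block, 2 family genes were called lower and 1 partner higher, and the factors' count stayed at 1. Family genes called lower were 4 as reported, 1 each with quantile normalization, median centring, the filter at the median signal and without both arrays numbered 2, 2 with array weights, 6 with the methods' ANOVA, and 2 to 5 with 1 array left out. Partners called higher were 1 with median centring and 0 to 1 with 1 array left out, and partners called lower were 2 with quantile normalization, 1 with array weights and 0 to 1 with 1 array left out. Targets called lower were 0 with array weights, 0 with the methods' ANOVA and 0 to 1 with 1 array left out, and those called higher 0 to 1.

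Of 256 single-gene values under settings other than 1 array left out, 8 changed sign, all of them small. At many of the 256 the sign could not change. The filters on dim probe sets, the other variance models, the methods' ANOVA and the replicate block leave a difference as it was. So does averaging for a gene with 1 probe set. With median centring Gata4 became 0.0523, Gata6 0.0293 and Mef2a 0.0424. With quantile normalization Mef2c became -0.0224, Nkx2-5 -0.0337 and Tbx3 -0.00746. Nkx2-5 was -0.00613 with array weights, and Mef2c -0.0125 without both arrays numbered 2. With 1 array left out, Gata4 ran from -0.0744 to 0.0481, Mef2a from -0.039 to 0.000617, Mef2c from -0.0346 to 0.12, Nkx2-5 from -0.0486 to 0.0923, Tbx3 from -0.0268 to 0.13 and Tnnt2 from -0.47 to 0.0184. The causes were not tested.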
